A study of Mus musculus with 4 samples.

Results

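Genes that mark T cells, natural killer T (NKT) cells and natural killer (NK) cells were followed in fat taken from beside the epididymis (epididymal adipose tissue, a visceral depot) of mice with and without CD1d. The list named 33 genes, chosen by their known roles but with earlier results of these data known. Of these, 30 had a probe set that the platform annotation pairs with a single gene, among 18820 such genes on the array. Lck, Tcf7 and Foxp3 were not analysed here. Lck and Tcf7 had no probe set paired with them in that annotation, and those of Foxp3 are shared with the adjoining gene Ccdc22. Each of the 30 genes was read by 1 probe set, and no filter on low levels was applied to them. Only 11 of the 30 had a mean level at or over the 40th percentile of all genes.

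The study covered 4 arrays in 3 groups, each hybridized with RNA pooled from 4 to 6 mice per group. Wild type C57BL/6J mice ate a diet of 10 kcal% fat, here low-fat (1 array, WT-LF), or of 45 kcal% fat, here high-fat (1 array, WT-HF), and the CD1d-/- (KO) mice, backcrossed to C57BL/6J for 10 to 12 generations, were on the low-fat diet (2 arrays, KO1 and KO2). All mice had standard chow until an age of 10 to 11 weeks and then the low-fat or high-fat diet for 18 to 19 weeks. Whether KO1 and KO2 came from different mice is not stated in the labels, and p-values therefore measure only the spread between these arrays, which may be technical. Deletion of CD1d in every tissue removes the molecule that selects CD1d-restricted NKT cells in the thymus, so the KO arrays come from mice without those cells for life.

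T cells recognise antigen through a receptor whose variable chains are carried to the surface by the CD3 chains, which pass the signal on through the kinases Lck and Zap70 and the adaptor Lat. NKT cells are T cells with a nearly fixed receptor for lipids held by CD1d, and they share surface receptors such as NK1.1 (Klrb1c) with NK cells, which carry no T cell receptor and kill with perforin and granzymes. In lean fat these lymphocytes are a small share of the cells beside adipocytes, vessels and macrophages, and they are known to take part in how the tissue tolerates insulin.

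Every level below is a log2 intensity, and every difference is in log2 units where no fold is named. Cd1d1, the disrupted gene, was at 11.80 on both wild type arrays and at 3.74 and 3.98 on KO1 and KO2, so the arrays fit their genotype labels. Adipocyte markers were high on all 4 arrays, with levels from 11.38 to 13.48 for the 7 measured, among them Adipoq and Plin1. Over all genes, the median difference from WT-LF was 0.01 on WT-HF, −0.07 on KO1 and −0.01 on KO2. Macrophage markers stood apart on WT-HF and KO2, and genes of the epididymis on WT-LF and, in part, KO2, and both are given beside the results they touch. KO2 differed from KO1 by at least 1.5-fold in 1823 genes upward and 752 downward, of 18820.

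Most lymphocyte genes gave a signal close to the lower end of the arrays. Probe sets differ in affinity, so levels of different genes are not ranked here, and the position of a level on its array is used only to show where signal lies near background. The 990 olfactory receptor genes, which are mostly used in the nose, served as a guide to low signal and were chosen after their values were seen. Their 95th percentile was 5.0 on WT-LF, and 18 of the 30 lymphocyte genes lay above it. It was 4.93 on WT-HF with 21 genes above, 5.59 on KO1 with 7 above, and 5.41 on KO2 with 12 above. The olfactory receptor genes were themselves higher on the KO arrays, with medians of 3.99 and 3.95 on WT-LF and WT-HF and 4.35 and 4.24 on KO1 and KO2. Above the median of all genes lay 4, 4, 1 and 5 of the 30 genes on WT-LF, WT-HF, KO1 and KO2. A small signal above background understates a true ratio, so folds of genes above that range may be understated. Folds of genes inside the range of the olfactory receptor genes cannot be read as understated or overstated.

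**Figure D1:**
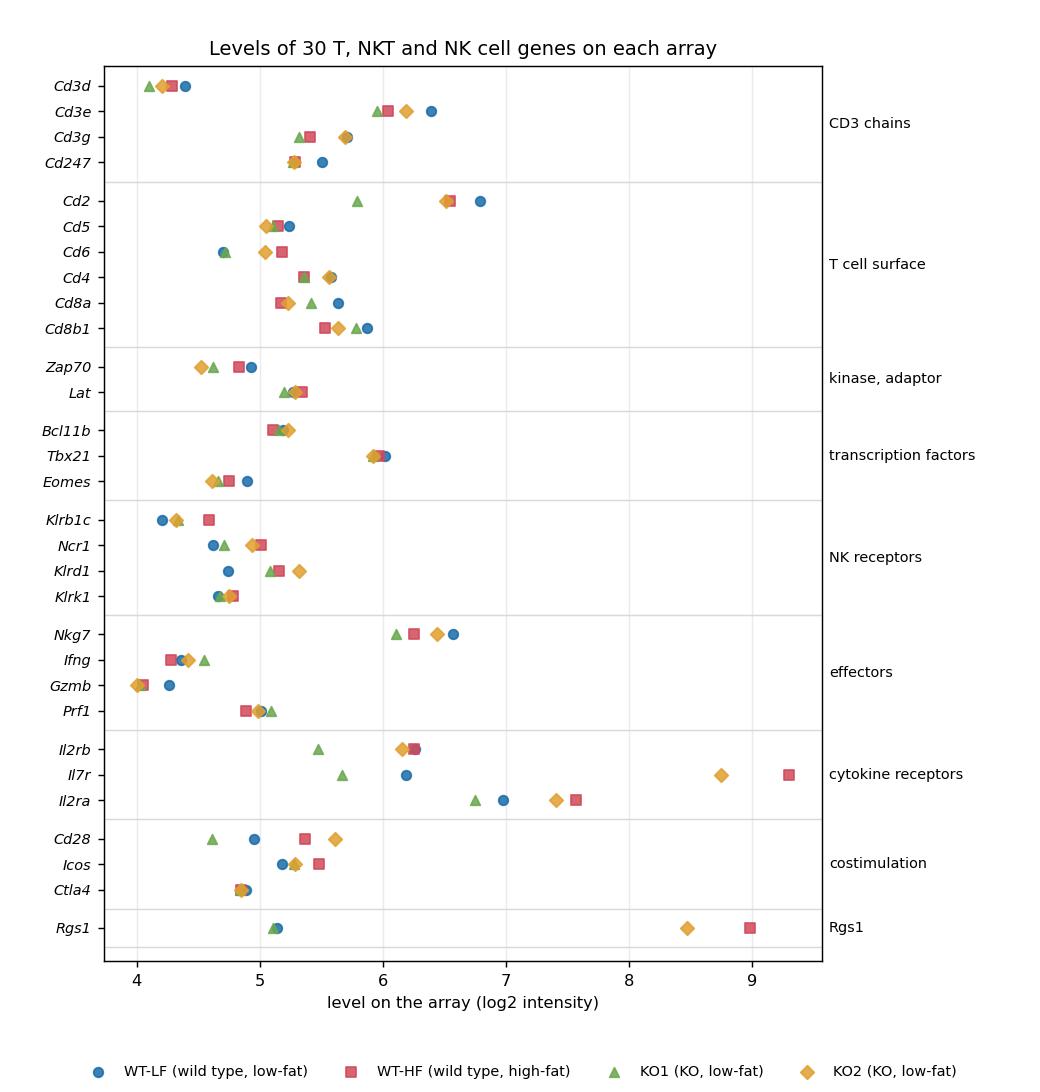
Levels in log2 intensity of the 30 T, NKT and NK cell genes, grouped by role, with 1 point for each of the 4 arrays and no error bar, since 2 of the 3 groups have 1 array. Most genes stay within a narrow band on all arrays, from a 1.04-fold range for Ctla4 upward, while Rgs1 and Il7r are far higher on WT-HF and KO2 than on the other two.

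The chains of the T cell receptor complex came first. Cd3e, which encodes the CD3 epsilon chain, was at 6.39 on WT-LF, 6.04 on WT-HF, 5.95 on KO1 and 6.19 on KO2. Cd3g, for the gamma chain, was at 5.71, 5.41, 5.32 and 5.69 in the same order of arrays, which is kept below. Cd3d, for the delta chain, was at 4.39, 4.29, 4.10 and 4.21, inside the range of the olfactory receptor genes. For the zeta chain, which carries most of the signalling motifs, Cd247 was at 5.51, 5.29, 5.27 and 5.28. All 4 chains were therefore highest on WT-LF, by 1.02-fold to 1.36-fold over single arrays, and Cd3g on KO2 was nearly level with it.

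None of the 4 chains passed the test for KO against wild type. For Cd3e the KO mean was 6.07 ± 0.18 (SD, n = 2), a difference from wild type of −0.32 with a standard error of 0.24 and a 95% interval from −0.99 to 0.35 in limma. For Cd247, where the KO arrays differed least, it was −0.23 (95% interval −0.83 to 0.37). The difference was larger than the gap between KO1 and KO2 for Cd247, Cd3d (−0.24 against a gap of 0.11) and Cd3e (a gap of 0.25), and smaller for Cd3g (−0.21 against 0.37). In limma the adjusted p was 1 for each of the 4 chains. In bulk tissue, fewer T cells and less RNA per cell cannot be told apart. After each array was centred on its median over all genes, 3 of the 4 chains were lower on both KO arrays, since Cd3g was then not.

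Surface receptors of T cells were mostly highest on WT-LF too, while the order of the other arrays varied. Cd2, an adhesion receptor of T and NK cells, was at 6.79, 6.55, 5.79 and 6.51, and KO1 alone was low, 2.0-fold under WT-LF. Cd8a and Cd8b1, the chains of the CD8 coreceptor of cytotoxic T cells, were at 5.64, 5.17, 5.42 and 5.23 and at 5.87, 5.53, 5.78 and 5.64. Both CD8 chains were highest on WT-LF and lowest on WT-HF, and KO1 lay nearest to wild type low-fat fat. Cd4, the coreceptor of helper T cells that macrophages can also carry, was at 5.58, 5.36, 5.36 and 5.56. Cd5, a brake on receptor signalling, was at 5.24, 5.15, 5.11 and 5.05. Its relative Cd6 ran the other way, at 4.70, 5.18, 4.72 and 5.04, although Cd5 and Cd6 are neighbours on the chromosome. WT-LF was the highest for 5 of these 6 genes and the lowest for Cd6.

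Signalling genes and transcription factors varied little. Zap70, the kinase that binds the phosphorylated CD3 chains, was at 4.93, 4.83, 4.62 and 4.52. Lat, the membrane adaptor that Zap70 phosphorylates, was at 5.27, 5.34, 5.20 and 5.29. Tbx21 (T-bet), which drives interferon-gamma production in T and NK cells, was at 6.02, 5.97, 5.92 and 5.92, a range of 1.08-fold. Eomes, its relative in NK and memory T cells, was at 4.90, 4.75, 4.66 and 4.61, and Bcl11b, a factor of T cell commitment, at 5.19, 5.11, 5.16 and 5.23. In limma, the KO differences from wild type low-fat fat were −0.27 for Eomes (95% interval −0.87 to 0.34) and −0.36 for Zap70 (−0.98 to 0.26). Bcl11b differed by 0.00 (−0.60 to 0.61). Eomes and Zap70 lay under the 95th percentile of the olfactory receptor genes on all 4 arrays.

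The 4 listed NK cell receptors ran opposite to the CD3 chains. NK cell genes did not do so as a whole. Among 13 further ones, 3 were higher and 5 lower on both KO arrays than on WT-LF, against 21.5% and 34.6% of all genes. Klrd1 (CD94), which pairs with NKG2 receptors on NK cells, was at 4.74 on WT-LF, 5.16 on WT-HF, 5.08 on KO1 and 5.32 on KO2. Ncr1 (NKp46), an activating receptor of NK cells, was at 4.62, 5.01, 4.71 and 4.94, and Klrb1c (NK1.1), carried by NK and many NKT cells, at 4.21, 4.59, 4.34 and 4.32. Klrk1 (NKG2D), which senses stress-induced ligands, was at 4.66, 4.78, 4.68 and 4.75. All 4 receptors were thus lowest on WT-LF, and 3 of the 4 still were after quantile normalization. WT-LF was also the lowest array for 385 of the 990 olfactory receptor genes. Klrb1c and Klrk1 lay under the 95th percentile of those genes on all 4 arrays, and Klrd1 and Ncr1 on all but WT-HF. The part of the olfactory shift in the NK receptors was not tested. Klrd1 came nearest to the threshold of the 30 genes for KO against wild type, with a difference in limma of 0.46 (standard error 0.24, 95% interval −0.21 to 1.13) and an adjusted p of 1. Klrb1c, the receptor most tied to NKT cells, differed by 0.12 (95% interval −0.48 to 0.73), and its KO arrays lay 0.13 and 0.11 above WT-LF.

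Effector genes other than Nkg7 were low and nearly level. Gzmb, which encodes the killing protease granzyme B, was at 4.26, 4.05, 4.03 and 4.00, and Prf1 (perforin) at 5.01, 4.89, 5.09 and 4.99. Ifng (interferon-gamma), the main cytokine of NK and type 1 T cells, was at 4.36, 4.28, 4.55 and 4.42. Gzmb and Ifng lay under the 95th percentile of the olfactory receptor genes on all 4 arrays, where a fall could not be seen. Nkg7, a protein of cytotoxic granules, was at 6.57, 6.25, 6.11 and 6.44, highest on WT-LF like Gzmb. It lay above that percentile on all 4 arrays, with a range of 1.38-fold.

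Costimulatory receptors lie side by side on the chromosome in the order Cd28, Ctla4 and Icos, and did not move alike. Cd28, which gives T cells their second activating signal, was at 4.95, 5.37, 4.61 and 5.61, a 1.99-fold gap between the KO arrays. Icos, an activating relative, was at 5.18, 5.48, 5.28 and 5.29. Ctla4, an inhibitory relative rich in regulatory T cells, was at 4.89, 4.85, 4.84 and 4.85, the smallest range of the 30 genes. Cd28 was high on WT-HF and KO2, and Ctla4 was level on all arrays.

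Rgs1 and Il7r were the exceptions among the 30 genes. Rgs1, which dampens chemokine receptor signalling in lymphocytes and macrophages, was at 5.14 on WT-LF, 8.98 on WT-HF, 5.11 on KO1 and 8.47 on KO2. Il7r, the interleukin-7 receptor alpha chain that keeps naive and memory T cells alive, was at 6.19, 9.30, 5.67 and 8.75. Both were high on WT-HF and KO2 and low on the other arrays, with no overlap between the pairs for either gene. Across the 30 genes, 10 had both of the former arrays above both of the latter, against 27.4% of all genes, and 2, Rgs1 and Il7r, had a range of at least 2-fold over the 4 arrays (Cd2 lay just under it), against 7.24%. Rgs1 was 14.3-fold and Il7r 8.62-fold higher on the high-fat than on the low-fat diet in wild type fat, the 5th and 8th largest rises of 18820 genes. Between the KO arrays, which share neither an array nor a difference in diet with that pair, they were 10.3-fold and 8.44-fold higher on KO2, the 14th and 18th largest. On WT-LF, Rgs1 lay just above the 95th percentile of the olfactory receptor genes (5.0), so its fold between the diets may be understated. On KO1 it lay under that percentile (5.59), so its fold between the KO arrays cannot be read as understated or overstated.

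The macrophage markers moved with Rgs1 and Il7r. All 8 of 8 were higher on WT-HF than on WT-LF, by 0.58 to 3.48, and on KO2 than on KO1, by 0.87 to 3.77. Their summed intensity was 8075 on WT-LF, 18727 on WT-HF, 6287 on KO1 and 16170 on KO2. Itgax (CD11c), a marker of macrophages in obese fat and of dendritic cells, was at 6.43, 9.45, 5.72 and 8.72. Trem2, a macrophage receptor that binds lipids, was at 6.86, 9.94, 6.52 and 9.53. The part of these cells in the levels of Rgs1 and Il7r was not tested. The summed intensity of the 4 CD3 chains was 203, 167, 157 and 182, lower on WT-HF than on WT-LF and higher on KO2 than on KO1. Rgs18, a relative of Rgs1 in myeloid cells and platelets, was at 6.75, 8.06, 6.43 and 7.90, and among the 18 measured genes of the RGS family only Rgs1 and Rgs18 had a range of at least 2-fold.

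**Figure D2:**
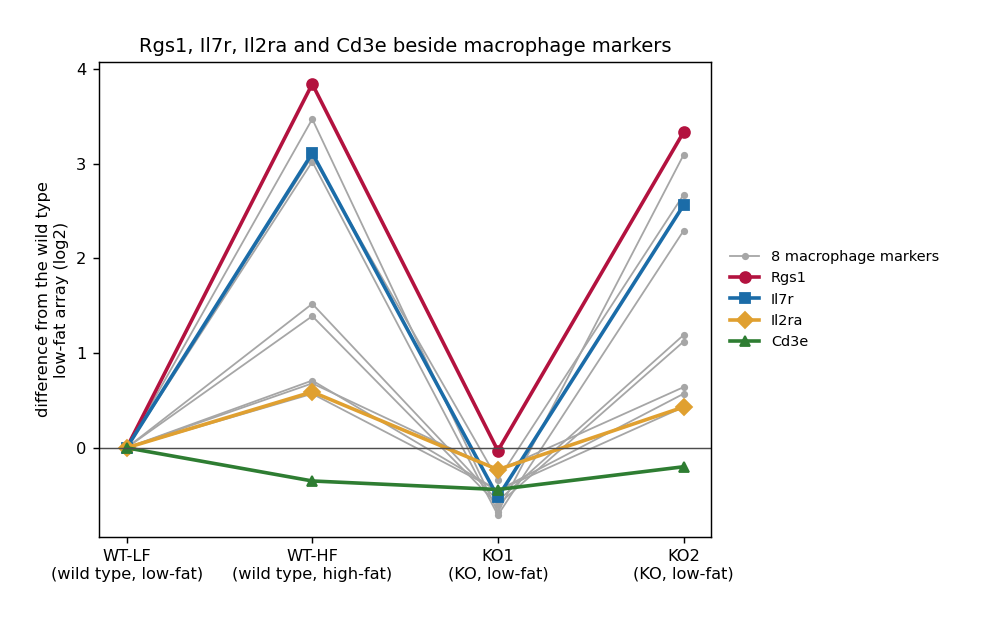
Differences in log2 from WT-LF (y axis) on each of the 4 arrays (x axis) for Rgs1, Il7r, Il2ra and Cd3e in colour and for the 8 macrophage markers in grey, with 1 value per array. Rgs1, Il7r and the macrophage markers are high on WT-HF and KO2, Il2ra takes the same order with smaller steps, and Cd3e lies below 0 on the 3 other arrays.

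The remaining interleukin receptor chains showed that order weakly or not at all. Il2ra (CD25), the high-affinity interleukin-2 receptor chain of activated and regulatory T cells, was at 6.98, 7.57, 6.75 and 7.41, so its order of arrays was that of Il7r. It was 0.58 higher on the high-fat than on the low-fat diet, just under 1.5-fold (a log2 difference of 0.585), and 1.57-fold higher on KO2 than on KO1. Il2rb, the beta chain shared by the interleukin-2 and interleukin-15 receptors and abundant on NK cells, was at 6.26, 6.25, 5.47 and 6.16. Only KO1 was low for Il2rb, by 1.73-fold, as for Cd2.

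The sequences upstream of Il7r, of Il2ra with the same order of arrays, and of Cd3e without it are shown because the arrays separate these genes, and each runs from 250 bases before to 50 bases after the start site, from RefSeq on GRCm38.p6. The Il7r window is chr15:9529827-9530126 (minus strand), that of Il2ra chr2:11642542-11642841 (plus strand) and that of Cd3e chr9:45009562-45009861 (minus strand). Capitals mark ACTTCCT, the reverse complement of the ETS family motif AGGAAGT.
Il7r: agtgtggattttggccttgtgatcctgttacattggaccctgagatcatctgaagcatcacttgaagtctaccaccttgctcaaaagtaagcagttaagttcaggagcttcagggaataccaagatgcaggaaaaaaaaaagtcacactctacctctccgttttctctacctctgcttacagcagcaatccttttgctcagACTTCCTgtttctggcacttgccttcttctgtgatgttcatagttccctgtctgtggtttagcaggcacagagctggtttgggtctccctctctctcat
Il2ra: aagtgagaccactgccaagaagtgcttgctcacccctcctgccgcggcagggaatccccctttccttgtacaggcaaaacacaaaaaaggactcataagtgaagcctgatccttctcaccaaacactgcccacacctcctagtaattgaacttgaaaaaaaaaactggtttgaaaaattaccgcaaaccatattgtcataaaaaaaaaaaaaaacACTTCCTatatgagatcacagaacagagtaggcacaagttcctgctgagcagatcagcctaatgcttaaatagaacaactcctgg
Cd3e: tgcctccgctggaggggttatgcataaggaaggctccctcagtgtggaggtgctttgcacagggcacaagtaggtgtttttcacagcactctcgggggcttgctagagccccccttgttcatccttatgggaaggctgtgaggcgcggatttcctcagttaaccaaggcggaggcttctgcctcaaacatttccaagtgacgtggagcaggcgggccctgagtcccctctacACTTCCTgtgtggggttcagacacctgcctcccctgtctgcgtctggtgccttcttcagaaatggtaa

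Each of these windows holds the ETS motif once, at 49 bases before the start site in Il7r, 35 in Il2ra and 18 in Cd3e, counted to its first printed base. The motif was picked after the sequences were read and was searched on both strands. It lies in 9.35% of 32851 RefSeq promoters of this length and in 10 of the 30 promoters listed for 24 of the 33 genes, some of which have several start sites: Cd247, Cd3d, Cd3e, Cd5, Il2ra, Il7r, Lck, Prf1 and Tbx21. A motif of the RUNX family, TGTGGT on either strand, is in 16.8% of all promoters and in 11 of the 30, including that of Il7r, and not in the windows of Il2ra and Cd3e. The AP-1 motif TGANTCA is in 7.81% of all and in 2 of the 30, Gzmb and Klrk1. A match describes these letters and does not show that a factor binds there. The same ETS match thus stands before genes that differed between the arrays and before genes that did not.

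In the diet comparison of wild type fat, which has 1 array per diet and no test, high-fat feeding went with a level at least 1.5-fold higher in 2 of the 30 genes, Rgs1 and Il7r, and with such a lower level in 0. Over all genes 5.38% were higher and 3.13% lower by that size, so the count of the 30 is near the background. Only the sizes for Rgs1 and Il7r stand out, in a list chosen with earlier results of these data known. The median difference of the 30 genes was −0.08, against 0.01 over all genes, and 19 of the 30 were lower on the high-fat diet, against 9073 of 18820 genes. Other receptor-signalling genes of T cells gave 4 of 17 at least 1.5-fold higher and 0 lower. These 4 were Ptpn22 (6.21 and 7.37 on the low-fat and high-fat diets), Fyb (7.00 and 8.13), Vav1 (6.28 and 7.08) and Lcp2 (8.36 and 9.16). They were also higher on KO2 than on KO1, by 1.21, 1.18, 1.26 and 1.13. Their order of arrays was that of the macrophage markers, whose part in these 4 genes was not tested. The differences of the 13 others ran from −0.31 for Skap1 (4.68 and 4.37) to 0.46 for Prkcq (6.01 and 6.47).

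**Figure D3:**
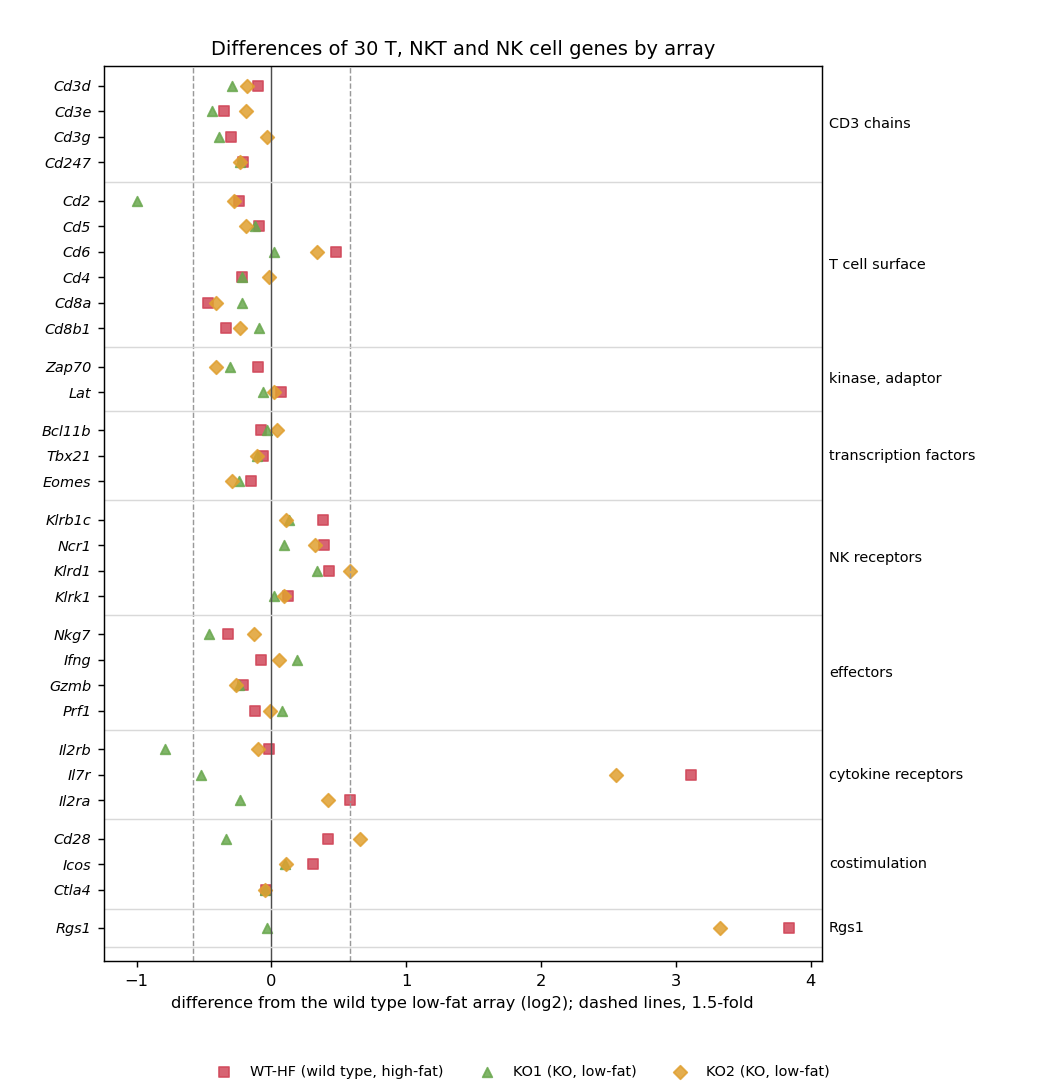
Differences in log2 from WT-LF (x axis) for the 30 genes by role on WT-HF and KO1 and KO2, with dashed lines at 1.5-fold and 1 value per array. Beyond the lines lie Rgs1 and Il7r on WT-HF and KO2, Cd28 on KO2, and Cd2 and Il2rb on KO1.

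Fat without CD1d was compared with wild type fat on the low-fat diet to ask whether lymphocyte genes change where NKT cells cannot form. No gene of the 30 passed the test, and 0 had an unadjusted p under 0.05, in limma with Benjamini-Hochberg adjustment over 18820 genes. In that fit 0.0% of all genes passed, Cd1d1 included (difference −7.95, standard error 0.24, adjusted p = 0.0932), and 282 genes (1.5%) had an unadjusted p under 0.05. When only the 11292 genes at or over the 40th percentile were tested, 5 genes passed in limma, Cd1d1 among them (adjusted p = 0.00646), and 0 of the 11 lymphocyte genes in that test. In simulated arrays for this comparison, 0 of 50 genes changed 2-fold and 1 of 50 changed 4-fold were called, against 34 of 50 changed 8-fold. The number of changed genes was set in that simulation, and in the real fit over all genes even Cd1d1 was not called. Moderate changes could therefore not be called here, and far larger ones could be missed.

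The intervals rest on the spread between KO1 and KO2, which may be technical, and on 1 WT-LF array. They therefore do not bound differences between mice, nor a true ratio where the signal is near background. Among the 28 genes other than Rgs1 and Il7r, differences ran from −0.64 for Cd2 to 0.46 for Klrd1, and 22 of the 28 had a 95% interval within 2-fold in both directions. The widest of the 28 were Cd2 (−1.69 to 0.42) and Cd28 (−1.18 to 1.5). Rgs1 had a difference of 1.65 with an interval from −2.43 to 5.72, and Il7r 1.02 with −2.72 to 4.76, because their KO arrays lay at opposite ends.

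By size, 0 of the 30 genes were at least 1.5-fold apart from WT-LF in 1 direction on both KO arrays, against 0.85% of all genes higher and 0.675% lower. On KO1, Cd2 and Il2rb were at least 1.5-fold lower and 0 higher (3.51% and 3.38% of all genes), and on KO2, Rgs1, Il7r and Cd28 were higher and 0 lower (4.43% and 3.44%). In 16 of the 30 genes both KO arrays were lower than WT-LF, against 34.6% of all genes, and in 7 both were higher, against 21.5%. The 16 hold the 4 CD3 chains, Cd2, Cd4, Cd5, both CD8 chains, Zap70, Tbx21, Eomes, Nkg7, Il2rb, Ctla4 and Gzmb, and each of them was lower on WT-HF too, so WT-LF was the highest of the 4 in these 16, against 25.1% of all genes. It was the lowest in 6, the 4 NK receptors, Cd6 and Icos, against 14.2% of all genes and 385 of 990 olfactory receptor genes. With arrays centred on their median the counts became 10 lower and 12 higher of the 30, against 16.7% and 38.9% of all genes. The counts therefore depend on the scaling, and so do those of all genes. The share lower on both KO arrays was above that of all genes under both scalings, 53.3% as reported and 33.3% when centred. The share higher on both was near that of all genes each time. These excesses were not tested.

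**Figure D4:**
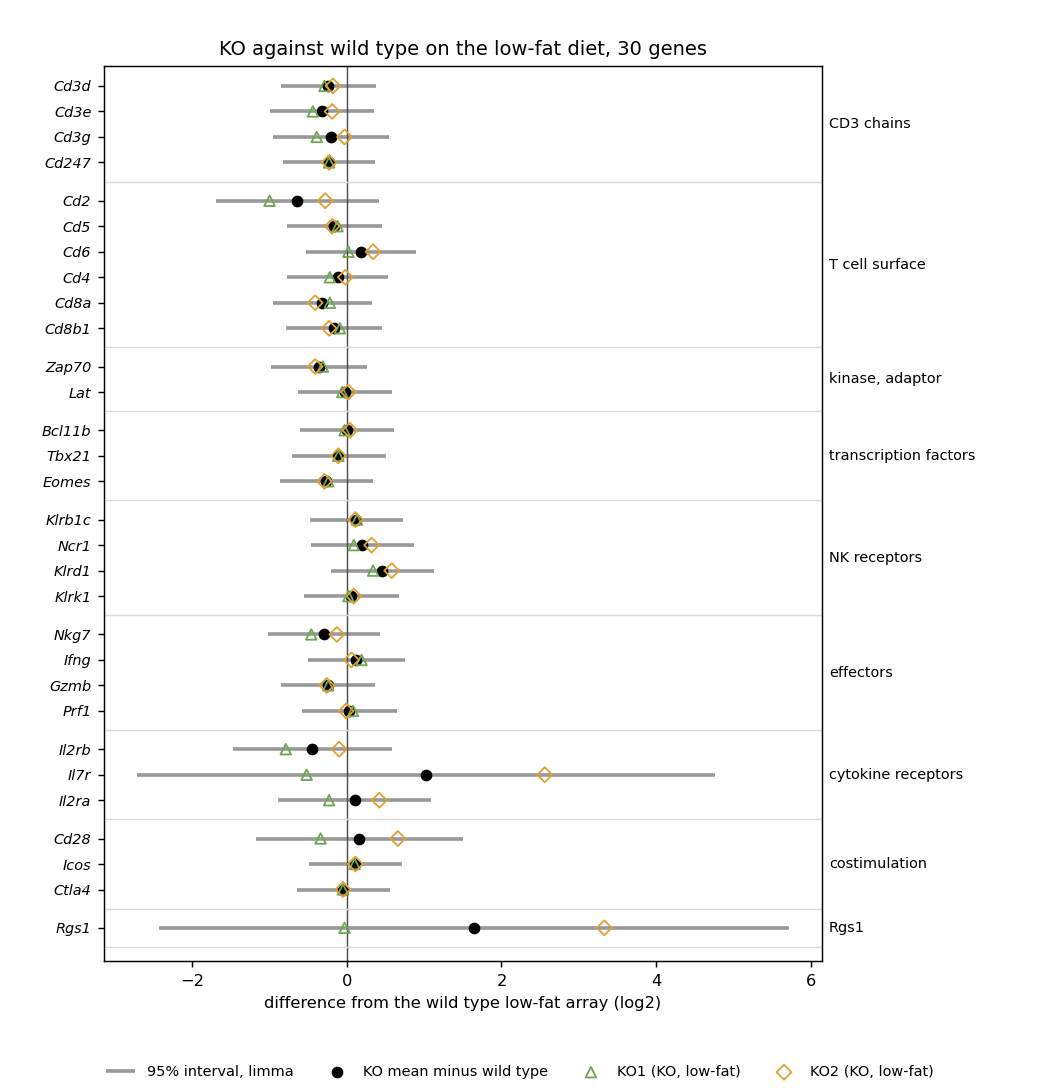
Difference of the KO mean (black points) and of KO1 and KO2 (open symbols) from WT-LF in log2 (x axis) for the 30 genes, with 95% intervals from limma as grey bars. Every interval spans 0, and Rgs1 and Il7r have the widest because KO1 lies near or below 0 and KO2 far above it.

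Genes of the epididymis moved with that array. Their 6 measured markers, among them Lcn5 (11.34, 4.32, 4.89 and 5.45) and Adam7 (9.35, 3.60, 3.68 and 8.71), summed to 8868 on WT-LF, 86.7 on WT-HF, 102 on KO1 and 655 on KO2. The part of epididymal tissue in the small excess of CD3 and CD8 genes on WT-LF was not tested. B cell markers had sums of 380, 363, 329 and 435 over 5 genes, highest on KO2. Ms4a1 (6.38, 5.93, 5.64 and 6.38) was level on WT-LF and KO2, and Pax5 (5.35, 5.11, 5.35 and 5.29) on WT-LF and KO1. Cd79a and Cd79b were highest on KO2, and Cr2 on KO1. Lymph node markers had sums of 422, 405, 482 and 414 over 5 genes.

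Between the KO arrays, 6 of the 30 genes were at least 1.5-fold higher on KO2 and 0 lower, against 9.69% and 4.0% of all genes. These were Rgs1, Il7r, Cd28 (1.99-fold), Cd2 (1.65-fold), Il2rb (1.61-fold) and Il2ra (1.57-fold), and at 2-fold only Rgs1 and Il7r remained. Macrophage markers differed in the same direction, as given above, and their part was not tested for the other genes either. Across the 30 genes the difference between the KO arrays had a Pearson correlation of 0.93 with the difference between the diets in wild type fat, which shares no array with it, and 0.37 without Rgs1 and Il7r, against 0.45 over all genes. These points share the joint normalization of the arrays and are not independent replicates, so the correlation is a description.

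KO fat was also set against WT-HF, where genotype and diet differ together. No gene of the 30 passed in limma, 0 had an unadjusted p under 0.05 (1.72% of all genes), and 0.0% of all genes passed. On KO1, Rgs1, Il7r, Il2ra, Cd28, Cd2 and Il2rb were at least 1.5-fold lower than on WT-HF and 0 higher, against 13.1% and 5.60% of all genes. On KO2, 0 of the 30 were apart by that size, against 2.18% of all genes higher and 1.24% lower. By these counts KO2 lay nearer to WT-HF than KO1 did, over all genes as well as in the lymphocyte genes, so this is not particular to them.

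Further genes of NKT and NK cells were looked at beside the 30. Zbtb16 (PLZF), the factor that programmes NKT cells and is also used by adipocytes, was at 10.29, 10.23, 10.98 and 10.81, high in KO fat that lacks CD1d-restricted NKT cells. Cxcr6, a homing receptor of NKT cells, was at 5.76, 5.55, 5.52 and 5.67, and Il4, a cytokine they make, at 3.92, 3.69, 3.78 and 3.64. Of the 11 measured NKT-related genes, only Egr2 (5.77, 7.20, 5.45 and 6.77) and Gata3 (7.22, 5.31, 8.46 and 5.20) had a range of at least 2-fold, and 0 passed in limma. Egr2 took the order of the macrophage markers, and Gata3, a factor of T cells and of several epithelia, that of Cnn1. Cnn1, a smooth muscle marker, was at 8.05, 5.59, 11.03 and 5.12. Myh11 and Tagln shared the order of Cnn1, while Acta2 (11.71, 11.92, 12.04 and 11.85) and Des (7.93, 8.00, 9.35 and 7.86) did not. These 5 smooth muscle markers summed to 4349, 4517, 8488 and 4262, and their part in Gata3 was not tested. Among 13 further NK cell genes, Klrb1b (4.68, 5.60, 4.68 and 5.85) alone had a range of at least 2-fold, and Ccl5, a chemokine of cytotoxic cells, was level at 8.04, 7.90, 7.85 and 8.16. Cytokines of helper T cells were close to background, with 1 of 13 over the 40th percentile of all genes. Regulatory T cell genes other than the listed ones, 8 in number, included 0 with a 2-fold range, and of 11 genes of T cell chemotaxis only Cxcl16, a ligand of Cxcr6 made by macrophages, had one (6.55, 7.21, 5.95 and 7.09). No gene of these lists passed in limma in either KO comparison.

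The variable (V) segments of the T cell receptor were read by probe sets of their own, and this list was collected after the data were seen. Trav12-2 was at 6.05 on WT-LF, 5.93 on WT-HF, 7.07 on KO1 and 6.80 on KO2. Trav14d-3-dv8 was at 5.09, 4.84, 6.01 and 5.65, and Trav4d-4 at 4.84, 4.77, 5.65 and 5.32. In all, 7 of 8 alpha V segments were higher on both KO arrays than on WT-LF, with medians of 0.61 and 0.39, and the exception was Trav7-4 at 3.23, 3.09, 3.16 and 3.12. Olfactory receptor genes did likewise in 794 of 990, with medians of 0.35 and 0.21, while all genes under the 40th percentile of level had medians of 0.08 and −0.01. On the same arrays, all 4 CD3 chains were lower on both KO arrays than on WT-LF, and 3 of the 4 with arrays centred on their median. V segments resemble each other in sequence, so the segments may not be separate measurements, and the part of the shift seen in olfactory receptor genes was not tested. Trbv1, a beta V segment, was at 4.65, 4.99, 4.98 and 5.66, and Trgv1, a gamma V segment, at 4.40, 4.58, 5.06 and 4.84. Trdv2-2, a delta V segment, was at 4.21, 4.24, 4.27 and 4.17, so it was not higher on both KO arrays.

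**Figure D5:**
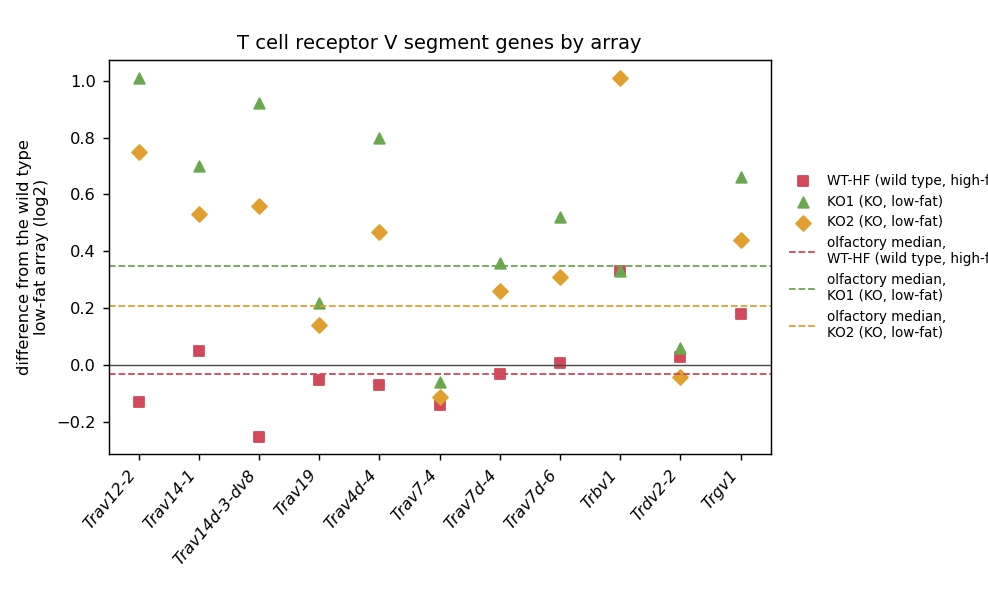
Differences in log2 from WT-LF (y axis) for 11 T cell receptor V segment genes (x axis) on WT-HF and KO1 and KO2, with 1 value per array and dashed lines at the median of 990 olfactory receptor genes on each array. Most alpha segments lie above 0 on both KO arrays and near 0 on WT-HF, and the olfactory medians are 0.35 and 0.21 on KO1 and KO2.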

How the data were processed

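RNA of epididymal adipose tissue was measured on 4 whole-transcript arrays, grouped by the sample titles. The authors deposited 1 linear intensity per probe set and array, for which the submitters' processing notes name RMA and R 2.15.0. No genome build is given in the sources used here. The log2 of each intensity (5.71 to 20092) was taken, with no further normalization. Of 35556 probe sets, 21218 had 1 gene symbol, 1881 several and 12457 none listed, and Entrez IDs of 21185 matched RefSeq (GRCm38.p6), changing 0 symbols. Per gene, the probe set with the highest mean was kept. Group means were fitted to all 18820 genes with limma 3.58.1 in R 4.3.3 (eBayes, two-sided, Benjamini-Hochberg, threshold 0.05), with 1 residual degree of freedom. The prior had 3.01 degrees and an SD of 0.20. Each wild type group has 1 array, whose spread is taken to equal that of the KO pair. Comparisons of single arrays are by size, 1.5-fold, without a test. The fit was tested on simulated data with known changes, with 6 false calls. The number of arrays limits the precision. All measured members are named, and of the other lists the genes highest in level or 2-fold apart, with a few more chosen after their values were seen; members and lists were chosen with earlier results of these data known. Alternatives changed the filter, probe set rule, scaling, variance model, arrays used and fold. Figures used matplotlib 3.10.9 in Python 3.11.15.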

Additional observations from a re-analysis of the deposited data

How the results depend on the processing

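No member passed limma in either KO comparison under any of the 6 alternative settings of the fit, and without 1 KO array no test could be made. The median difference of the members moved under the level filter to −0.22 on WT-HF (from −0.08) and −0.39 on KO1 (from −0.17), where 11 members are left. With arrays centred on their median it was −0.01 on KO1 and 0.04 for the KO mean (from −0.08); the cause was not tested. The 6 members higher on KO2 than on KO1 became 2 at 2-fold. Counts of members 1.5-fold from WT-LF ranged from 0 to 3 higher and from 0 to 2 lower when KO1 or KO2 was left out. Without Il7r and Rgs1, chosen after seeing the data, 0 members were higher on the high-fat diet. The KO difference changed sign when centred for Lat (0.09), Tbx21 (0.01) and Ctla4 (0.07), and after quantile normalization for Bcl11b (−0.03) and Prf1 (−0.01). Leaving out a KO array gave −0.52 to 2.56 for Il7r, −0.03 to 3.33 for Rgs1, −0.34 to 0.66 for Cd28, −0.23 to 0.42 for Il2ra, −0.06 to 0.02 for Lat, −0.03 to 0.04 for Bcl11b and −0.01 to 0.08 for Prf1. No paired analysis was possible because only the KO arrays carry replicate numbers. Most members lie near background, where array signal limits what can be seen.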
